A study of Mus musculus with 8 samples.

Results

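The genes described here are the voltage-gated and potassium ion channels expressed in chronic stroke infarcts of aged mice. They comprised every gene whose symbol marks a potassium channel or its auxiliary subunit, an alpha or beta subunit of the voltage-gated sodium channels, or an alpha1, alpha2delta, beta or gamma subunit of the voltage-gated calcium channels. The vascular gene *Kcnj8* and antisense transcripts were left out. The symbols, and no measured value, chose 133 of the 46078 genes counted, and 88 of the 133 had enough reads to be tested. Messenger RNA was sequenced from whole infarcts of wild type C57BL/6J mice, 18 months old, that had all undergone DH stroke. Vehicle animals (n = 4) received phosphate-buffered saline and HPβCD animals (n = 4) received 4 g/kg of 2-hydroxypropyl-β-cyclodextrin, a ring-shaped sugar that binds lipids such as cholesterol. Both were injected subcutaneously 3 times per week for 6 weeks from 1 week after stroke, and infarcts were taken at 7 weeks. The pieces were cut out by hand.

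Voltage-gated sodium channels carry the rising phase of the action potential, and voltage-gated potassium channels end it and set how often a neuron can fire. Voltage-gated calcium channels open on the same signal and admit the calcium that triggers transmitter release. Inward rectifiers and tandem-pore potassium channels are open near rest and hold the membrane potential, in glia and in many cells outside the nervous system as well as in neurons. Auxiliary subunits carry no current themselves but change where a channel goes and how quickly it opens or closes. An infarct at a chronic stage is a scar filled with macrophages, lymphocytes and fibroblasts, so the question asked of these genes was which of them moved with the neuron content of the piece and which did not.

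Neuron content differed widely within the vehicle group. A neuron score was taken for each animal as the mean, over 20 neuron markers with no channel among them, of log2 expression centred on each marker's own mean. The score was 3.25, -0.77, 5.37 and -1.46 in vehicle animals 1 to 4, and -2.33, -2.33, 0.03 and -1.76 in HPβCD animals 1 to 4. Vehicle animals 1 and 3 thus stood above all others, and vehicle animals 2 and 4 lay within the HPβCD range. The summed expression of the 20 markers ran from 141 to 11826 CPM (reads of a gene scaled to a common library size) in vehicle infarcts and from 94.7 to 347 CPM in HPβCD infarcts, and no marker was at 0 in every animal, while *Gad2*, *Nefm* and *Slc32a1* were at 0 in some HPβCD animals. *Snap25*, a protein of the synaptic release machinery, reached 334 and 3016 CPM in vehicle animals 1 and 3 and between 0.917 and 29.9 CPM in the remaining animals. Astrocyte markers varied too, with a score of 1.36, 0.04, 1.20 and 0.66 in the vehicle animals against -1.55, -1.30, 0.11 and -0.52 in the HPβCD animals. In bulk tissue, fewer neurons and less RNA per neuron cannot be told apart. Gene counts per library ran from 16.6 M to 32.9 M.

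The share of all gene counts that fell on the 133 channel genes was 0.376%, 0.138%, 0.608% and 0.143% in vehicle animals 1 to 4 and 0.111%, 0.123%, 0.112% and 0.118% in HPβCD animals 1 to 4. The animals with the most neuron marker RNA were also those with the highest share. Between 67 and 110 channel genes had at least 10 counts in a library.

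Levels were compared between genes only as TPM, a level scaled by exon length and library. The highest mean level over the 8 animals belonged to *Kcnj15* (ENSMUSG00000062609, chromosome 16, 95257558 to 95300260, plus strand, GRCm38), an inward rectifier known best from kidney and other epithelia, with 134 TPM. High levels were also those of *Kcnj10*, the main potassium channel of astrocytes (77.5 TPM), *Kcnj2*, an inward rectifier of muscle, vessels and myeloid cells (37.1 TPM), and *Kcna1*, a potassium channel of axons (30.3 TPM). *Kcnk1*, *Kcnk5*, *Kcnab2*, *Scn2b* and *Kcne4* had mean levels of 28.3, 27.0, 21.9, 21.5 and 20.5 TPM. In this order most neighbours overlapped widely between animals: *Kcnk1* ranged from 1.83 to 78.7 TPM and *Kcnk5* from 11.2 to 45.0 TPM. *Kcnj15* was far more even among HPβCD animals, where it ran from 132 to 213 TPM, than among vehicle animals, where it was 78.3, 154, 30.2 and 123 TPM in animals 1 to 4. Of all channel counts in a library, *Kcnj15* alone took between 23.7% and 37.9% in HPβCD infarcts and between 1.42% and 28.1% in vehicle infarcts. Its lowest share was in vehicle animal 3.

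**Figure D1:**
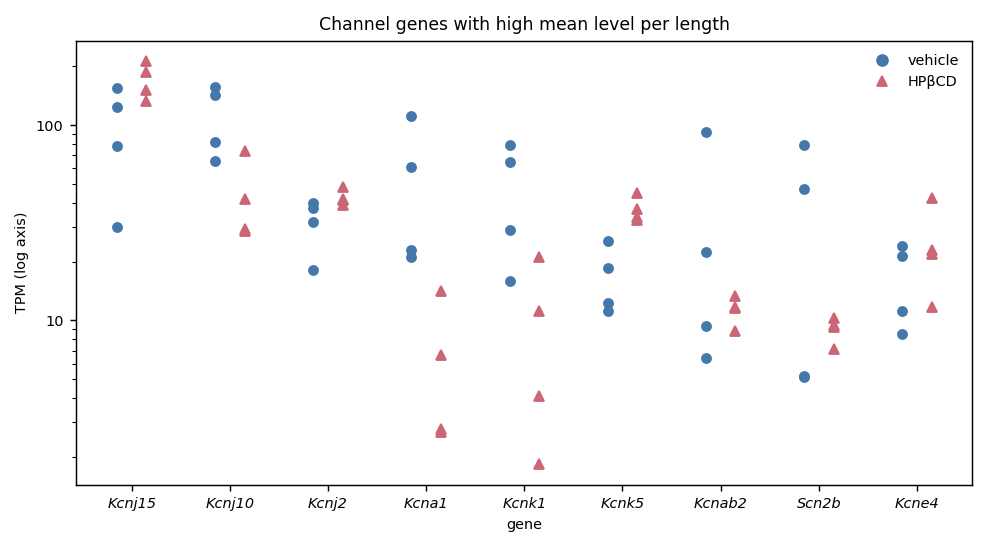
Level per exon length (TPM, log axis) of 9 channel genes with a high mean, with 1 point per animal, vehicle as circles and HPβCD as triangles. Only *Kcnj15* exceeded 100 TPM in all 4 HPβCD animals, and *Kcnk1* spread from 1.83 to 78.7 TPM over the 8 animals.

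As examples, not chosen as typical of any class, 250 bases upstream of the annotated start are given for *Scn1a*, *Kcnd3* and *Kcnj15*. *Scn1a* is a sodium channel of neurons with one of the steepest relations to neuron content. *Kcnd3* is a potassium channel that was lower in HPβCD infarcts, and *Kcnj15* ran against neuron content. Capitals mark the dinucleotide CG, which reads the same on both strands. The stretches are from RefSeq (GRCm38.p6), 5′ to 3′ on the strand of the gene: *Scn1a* at chr2:66440838-66441087 (minus strand), *Kcnd3* at chr3:105451640-105451889 (plus strand) and *Kcnj15* at chr16:95257308-95257557 (plus strand).
Scn1a: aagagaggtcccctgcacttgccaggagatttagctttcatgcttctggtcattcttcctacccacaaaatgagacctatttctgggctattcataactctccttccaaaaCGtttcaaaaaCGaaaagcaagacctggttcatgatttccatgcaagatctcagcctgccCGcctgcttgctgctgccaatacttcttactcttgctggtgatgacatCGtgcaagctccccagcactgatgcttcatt
Kcnd3: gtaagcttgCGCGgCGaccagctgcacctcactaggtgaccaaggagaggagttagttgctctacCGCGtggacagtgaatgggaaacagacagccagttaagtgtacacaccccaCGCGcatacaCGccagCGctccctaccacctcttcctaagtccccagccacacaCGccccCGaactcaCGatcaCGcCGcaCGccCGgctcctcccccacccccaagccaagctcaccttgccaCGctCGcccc
Kcnj15: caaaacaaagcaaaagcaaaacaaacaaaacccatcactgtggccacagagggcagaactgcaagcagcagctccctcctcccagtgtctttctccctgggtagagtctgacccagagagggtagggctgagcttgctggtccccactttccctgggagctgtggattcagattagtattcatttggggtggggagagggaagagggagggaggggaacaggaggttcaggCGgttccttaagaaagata
They held 4, 18 and 1 CG, respectively. The *Scn1a* stretch overlaps 3 annotated exons and the *Kcnd3* stretch overlaps 2, while that of *Kcnj15* overlaps none. A start region was matched by symbol for 98 channel genes, with the highest count taken where a symbol had several starts. The median was 10 CG, against 6 over the 27025 genes of the table, of which 92.3% held at least 1. Genes that rose with the neuron score with a slope interval reaching 0.5 (27 matched, defined next) had a median of 17 CG. *Scn1a*, which is one of them, lay well below that with 4 CG. Those not called whose interval lay below 0.5 (21 matched) had a median of 9 CG. These counts describe the letters in the window and were not tested.

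For each gene, the slope on the neuron score was fitted together with the group, as the log2 change in expression per 1 unit of score. A slope of 1 is that of the average neuron marker. A gene was said to follow the score when its slope was above 0 at an adjusted p under 0.05, and the 95% interval of the slope was read against 0.5. A gene without a call whose interval lay wholly below 0.5 was said not to follow it. The 17 neuron markers with enough reads had slopes from 0.47 to 1.43 (median 1.03). The score is the mean of these markers, so their slopes give its scale and are not a test. Of the 88 channel genes, 52 followed the score (quasi-likelihood F test in edgeR, p-values adjusted over all genes by the Benjamini-Hochberg procedure), where 13.4% of all 14736 genes did. The median slope was 0.36 for the channels and 0 for all genes. In 41 of the 52 the interval reached 0.5, and in 11 it lay wholly below 0.5, so that they rose with the score but less than a neuron marker. A further 28 did not pass the test and had an interval wholly below 0.5, 1 fell with the score, and 7 stayed undetermined, with no call and an interval that reached 0.5. An interval wholly below 0.5 was common, at 92.6% of all genes, and 85.2% of all genes had one without a called slope above 0, so the 40 channels with such an interval, and the 29 of them without a call above 0, were smaller shares of the channels than among all genes.

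**Figure D2:**
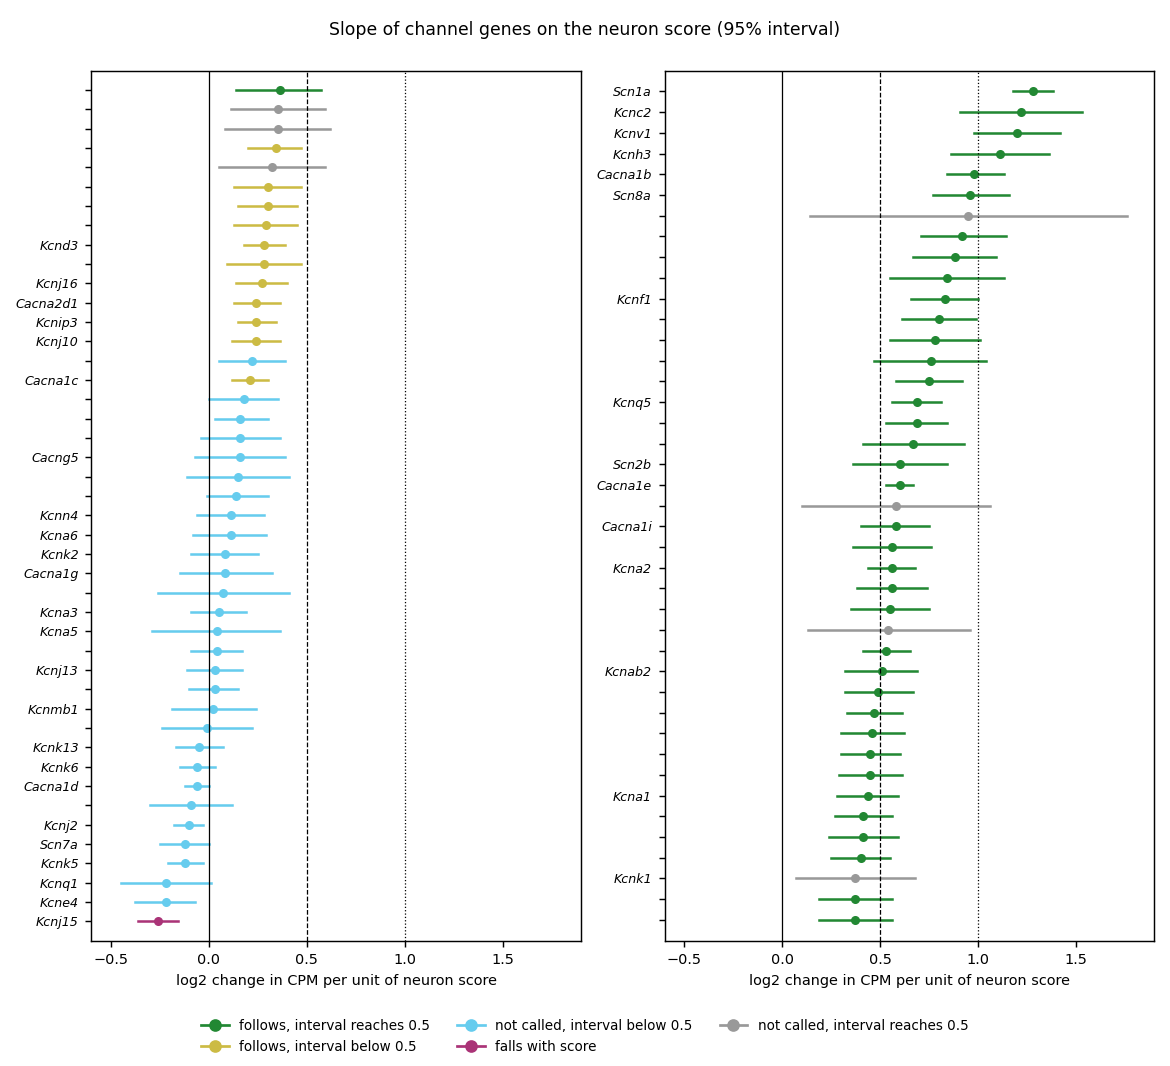
Slope of 85 of the 88 tested channel genes on the neuron score (log2 change per unit of score, bars are 95% intervals, dashed line at 0.5 and dotted line at 1), sorted by slope and coloured by class, with names for 39 of them. Slopes drawn ran from -0.26 for *Kcnj15* to 1.28 for *Scn1a*.

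These slopes rest on 2 animals. In 59 of the 88 channels, the highest values were those of vehicle animals 1 and 3, which was so for 18.6% of all genes. When both animals were left out, 1 channel followed the score, *Kcnc2*. With only vehicle animal 3 left out there were 31, and with each of the other animals left out in turn there were between 45 and 59. Within the vehicle group alone 45 channels followed the score, and this fit holds no difference between the groups.

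Sodium channel alpha subunits, which form the pore, had 6 tested genes of 10, and 4 of them followed the neuron score with an interval reaching 0.5. *Scn1a* (ENSMUSG00000064329, chromosome 2, 66270778 to 66440840, minus strand), the sodium channel most used by inhibitory interneurons, had 31.0, 0.659, 156 and 0.429 CPM in vehicle animals 1 to 4 and 0.0573, 0.0611, 0.696 and 0.166 CPM in HPβCD animals 1 to 4. It was high in vehicle animals 1 and 3 and near the lower limit of detection in HPβCD animals 1 and 2, which held 1 count each, and the groups overlapped. Its slope was 1.28 (95% interval 1.18 to 1.38, adjusted p = 1.4e-06 by edgeR). *Scn8a*, the channel at the site where action potentials start, had 55.1, 3.24, 272 and 2.15 CPM in vehicle animals and 2.92, 2.51, 3.96 and 2.33 CPM in HPβCD animals, with a slope of 0.96 (0.77 to 1.16). Vehicle animal 2 lay among the HPβCD animals for this gene and vehicle animal 4 below them. *Scn7a*, which senses sodium in glia and connective tissue and is not opened by voltage, did not follow the score. It had 5.76, 13.7, 7.97 and 10.7 CPM in the vehicle group and 10.2, 11.5, 9.0 and 15.8 CPM in HPβCD infarcts, and its lowest values were in vehicle animals 1 and 3. Its slope was -0.12 (-0.25 to 0.00, adjusted p = 0.141 by edgeR). The sixth tested alpha subunit, *Scn4a*, the channel of skeletal muscle, had a slope of -0.01 (-0.24 to 0.22) and was named after its values were seen.

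All 4 sodium channel beta subunits were tested, and 3 of them followed the score. *Scn2b*, which helps carry the pore to the cell surface, reached 95.2 and 178 CPM in vehicle animals 1 and 3, and it was 9.11 and 10 CPM in vehicle animals 2 and 4 and between 10.9 and 18.6 CPM in HPβCD animals (slope 0.60, 0.36 to 0.84). Without vehicle animals 1 and 3 the slope of *Scn2b* was -0.22, which did not pass the test (adjusted p = 0.561 by edgeR).

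Voltage-gated potassium channel alpha subunits were the largest family, with 27 of 40 tested. Of these, 18 followed the score, 16 with an interval reaching 0.5. *Kcnv1* (chromosome 15, 45106284 to 45114920, minus strand), which passes no current alone but modifies partner subunits, had 19.1, 0.83, 97.3 and 0.0537 CPM in the vehicle group and 0.115, 0.0611, 0.589 and 0.443 CPM in HPβCD infarcts. Vehicle animals 1 and 3 alone were high, vehicle animal 4 and HPβCD animals 1 and 2 held no more than 2 counts each, and the slope was 1.20 (0.98 to 1.42, adjusted p = 6.5e-05 by edgeR). *Kcnq5*, which contributes to the current that restrains repetitive firing, had a slope of 0.69 (0.56 to 0.81). *Kcnc2*, a channel of fast-firing neurons, had a slope of 1.22 (0.91 to 1.53). It reached 131 CPM in vehicle animal 3 and had no read in HPβCD animals 1 and 2. *Kcnf1*, a modifying subunit like *Kcnv1*, had a slope of 0.83 (0.66 to 1.00), and *Kcnh3*, a channel of forebrain neurons, a slope of 1.11 (0.86 to 1.36). The axonal pair *Kcna1* and *Kcna2* rose less steeply. *Kcna1* (chromosome 6, 126640397 to 126646384, minus strand) had 128, 37.8, 256 and 46.0 CPM in vehicle animals and 4.47, 4.71, 22.3 and 12.2 CPM in HPβCD animals, with a slope of 0.44 (0.28 to 0.59). *Kcna2* had 113, 19.2, 354 and 25.5 CPM in vehicle animals and 5.96, 6.85, 11.1 and 9.25 CPM in HPβCD animals, with a slope of 0.56 (0.44 to 0.68). For both genes every vehicle value lay above every HPβCD value.

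The voltage-gated potassium channels that did not follow the score included *Kcna6*, *Kcna3*, *Kcna5* and *Kcnq1*. *Kcna6* (ENSMUSG00000038077, chromosome 6, 126708329 to 126740674, minus strand), a relative of *Kcna1*, had 74.4, 28.8, 39.9 and 50.2 CPM in vehicle animals and 7.85, 8.87, 20.1 and 14.1 CPM in HPβCD animals. Vehicle animal 3, with the highest neuron score, was lower than vehicle animals 1 and 4, and the slope was 0.11 (-0.08 to 0.29). The oligodendrocyte score was 1.88, 0.87, 0.34 and 1.24 in vehicle animals and -2.56, -2.49, 0.84 and -0.13 in HPβCD animals, over 10 markers that summed to between 1691 and 5318 CPM and between 430 and 2308 CPM, with none at 0. Vehicle animals 1 and 4 were the highest and HPβCD animals 1 and 2 the lowest for this score as for *Kcna6*, and the part of these cells in its values was not tested. Of the exon bases of *Kcna6* 39.6% lie opposite exons of another gene, and how strand was used in the counting was not given in the sources used here. *Kcnq1*, a channel of heart and epithelia, had 0.790, 1.29, 0.362 and 1.02 CPM in the vehicle group and 2.98, 1.96, 1.45 and 0.831 CPM in HPβCD infarcts, with a slope of -0.22 (-0.45 to 0.01). Its values were low in both groups, and they overlapped.

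Calcium channel alpha1 subunits, which form the pore, had 8 tested genes of 10, and 5 of them followed the score. *Cacna1b*, the channel of presynaptic terminals, had a slope of 0.98 (0.84 to 1.13). It had 13.5, 1.03, 65.2 and 0.376 CPM in vehicle animals and 0.401, 0.367, 0.91 and 0.277 CPM in HPβCD animals. Vehicle animals 1 and 3 alone were high, and vehicle animal 4 lay within the HPβCD range. *Cacna1e* (ENSMUSG00000004110, chromosome 1, 154390731 to 154884501, minus strand), a channel of dendrites and terminals, had 47.9, 9.57, 109 and 6.17 CPM in vehicle animals and 1.78, 1.65, 5.09 and 2.05 CPM in HPβCD animals, with a slope of 0.60 (0.53 to 0.67). *Cacna1i*, a low-voltage-activated channel, had 46.7, 8.91, 89.1 and 5.80 CPM in vehicle animals and 2.18, 0.428, 3.27 and 1.05 CPM in HPβCD animals (slope 0.58, 0.40 to 0.75). In both genes vehicle animals 2 and 4 were also above every HPβCD animal.

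*Cacna1d* and *Cacna1c* are L-type calcium channels, which also serve heart, vessels and endocrine cells. *Cacna1d* (chromosome 14, 30039939 to 30491455, minus strand) was even across all infarcts, with 35.8, 44.9, 33.5 and 45.5 CPM in vehicle animals and 40.9, 44.3, 42.8 and 39.1 CPM in HPβCD animals. Its slope of -0.06 (-0.12 to 0.00) lay far below that of a neuron marker. *Cacna1c* had 30.3, 12.7, 34.8 and 13.1 CPM in vehicle animals and 22.2, 23.9, 22.5 and 23.7 CPM in HPβCD animals. Vehicle animals 2 and 4 were below all 4 HPβCD animals, and vehicle animals 1 and 3 above them, so that the group means of 22.7 and 23.1 CPM were alike while the slope was 0.21 (0.12 to 0.30, adjusted p = 0.00777 by edgeR). *Cacna1g*, low-voltage-activated like *Cacna1i*, had 21.4, 29.4, 43.9 and 13.1 CPM in vehicle animals and 45.9, 50.1, 18.0 and 19.6 CPM in HPβCD animals, with no order by group and a slope of 0.08 (-0.15 to 0.32).

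Among auxiliary subunits of calcium channels, 9 of 11 tested genes of 16 followed the score, 6 with an interval reaching 0.5. *Cacna2d1*, the target of gabapentin and the member of this family with the highest CPM, had 87.1, 65.0, 217 and 48.9 CPM in vehicle animals and 56.6, 53.3, 51.6 and 65.6 CPM in HPβCD animals, with a slope of 0.24 (0.13 to 0.36). Only vehicle animals 1 and 3 were above the HPβCD animals, and without them the slope was -0.01. *Cacng5*, which belongs to the gamma subunits that mainly accompany glutamate receptors, had 8.01, 3.41, 3.62 and 3.70 CPM in vehicle animals and 0.459, 0.428, 1.71 and 0.609 CPM in HPβCD animals. Vehicle animal 1 stood above the other vehicle animals, although animal 3 had the higher neuron score, and the slope was 0.16 (-0.07 to 0.39). Potassium channel auxiliary subunits had 10 tested genes of 17, of which 4 followed the score. *Kcnab2*, a cytoplasmic beta subunit, had 54.5, 19.6, 249 and 15.1 CPM in vehicle animals and between 19.0 and 27.3 CPM in HPβCD animals (slope 0.51, 0.32 to 0.69), and without vehicle animals 1 and 3 its slope was -0.04. *Kcnip3*, a calcium sensor that binds potassium channels and DNA, had 30.9, 15.4, 53.5 and 16.9 CPM in vehicle animals and between 15.9 and 26.4 CPM in HPβCD animals (slope 0.24, 0.15 to 0.34). *Kcne4*, a small subunit that inhibits its partner channels, was lowest in vehicle animals 1 and 3 and in HPβCD animal 3, the 3 animals with the highest neuron scores. It had 13, 24.1, 10.9 and 23.8 CPM in vehicle animals and 20.4, 41.1, 10.3 and 22.4 CPM in HPβCD animals, and its slope of -0.22 (-0.38 to -0.07) missed the threshold (adjusted p = 0.0520 by edgeR). DESeq2 called the slope of *Kcne4* below 0 (-0.23, adjusted p = 0.00766 by DESeq2).

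Tandem-pore potassium channels were the family without a follower among its tested genes. None of the 7 tested genes of 14 followed the score, 6 had an interval below 0.5, and *Kcnk1* was undetermined. At an unadjusted p under 0.05, 2 of the 7 (*Kcnk1* and *Kcnk3*) had a slope above 0. DESeq2 called 0 of the 7 above 0 and 1 (*Kcnk5*) below. It also called slopes above 0 for *Kcnk4* (1.38, adjusted p = 7.92e-07 by DESeq2) and *Kcnk12* (0.66, adjusted p = 0.0429 by DESeq2). Both had failed the edgeR filter and had most of their reads in vehicle animal 3. Slopes of the 7 tested genes ran from -0.12 to 0.37, and they were not compared with other families by a test. *Kcnk5* (ENSMUSG00000023243, chromosome 14, 20140057 to 20181809, minus strand), a channel opened by alkaline pH and found in epithelia and lymphocytes, had 18.3, 32.5, 18.4 and 26.6 CPM in vehicle animals and 38.8, 56.1, 36.6 and 48.6 CPM in HPβCD animals. Every HPβCD value was above every vehicle value, the only tested channel of which this was so, and the slope was -0.12 (-0.21 to -0.03, adjusted p = 0.0617 by edgeR). *Kcnk6*, a channel of myeloid and vascular cells, was even, with 24.1, 30.6, 22.0 and 34.8 CPM in vehicle animals and 31.3, 32.7, 44.2 and 33.6 CPM in HPβCD animals (slope -0.06, -0.15 to 0.03). *Kcnk2*, a mechanosensitive channel of neurons and astrocytes, had 68.1, 28.8, 33.9 and 38.5 CPM in vehicle animals and 12.8, 14.3, 20 and 26.8 CPM in HPβCD animals. The groups did not overlap, vehicle animal 3 was not the highest, and the slope was 0.08 (-0.09 to 0.25). *Kcnk1*, a weakly conducting channel of neurons and astrocytes, had 76.8, 13.4, 69.7 and 27.1 CPM in vehicle animals and 1.38, 3.36, 15.7 and 9.53 CPM in HPβCD animals, with a slope of 0.37 (0.07 to 0.68, adjusted p = 0.0843 by edgeR).

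The inward rectifiers held the 1 channel that edgeR called as falling with the score and 3 that did not follow it. *Kcnj15* had 216, 366, 92.3 and 326 CPM in vehicle animals and 395, 491, 276 and 371 CPM in HPβCD animals. Its lowest values were those of vehicle animals 3 and 1, followed by HPβCD animal 3, in reverse order of the neuron score. Its slope was -0.26 (-0.36 to -0.16, adjusted p = 0.00402 by edgeR), where 4.96% of all genes had a called slope below 0. Without vehicle animals 1 and 3 the slope was -0.25 and no longer passed the test (adjusted p = 0.368 by edgeR), nor did it without vehicle animal 3 alone, where its size was 0.18 in the same direction. Over the 8 animals the foamy macrophage score ran from -0.73 to 0.72 and the fibroblast score from -0.96 to 0.54, and for both lists vehicle animals 1 and 3 had the lowest values. The 10 foamy macrophage markers summed to between 13826 and 23805 CPM for vehicle animals and between 30722 and 45682 CPM for HPβCD animals, with none at 0, and the 10 fibroblast markers to between 3157 and 7219 CPM and between 10014 and 11443 CPM, with *Dpt* at 0 in at least 1 HPβCD animal. The part of these cells in the values of *Kcnj15* was not tested. *Kcnj2* (chromosome 11, 111066164 to 111076821, plus strand) had 75.6, 81.4, 47.8 and 85.4 CPM in vehicle animals and 75.4, 96.2, 70.3 and 87.2 CPM in HPβCD animals, with a slope of -0.10 (-0.18 to -0.03, adjusted p = 0.0615 by edgeR). DESeq2 called the slope of *Kcnj2* below 0 (-0.11, adjusted p = 0.0264 by DESeq2). Vehicle animal 3 was the lowest, and the groups overlapped. Of the 8 tested inward rectifiers (14 in all), 2 followed the score with an interval reaching 0.5, *Kcnj3* and *Kcnj9*, subunits of channels opened by G proteins that were named after their values were seen. Their relatives *Kcnj5* and *Kcnj6* did not have enough reads in enough animals to be tested. *Kcnj6* had 237 counts in vehicle animal 3 and 9 in vehicle animal 1.

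**Figure D3:**
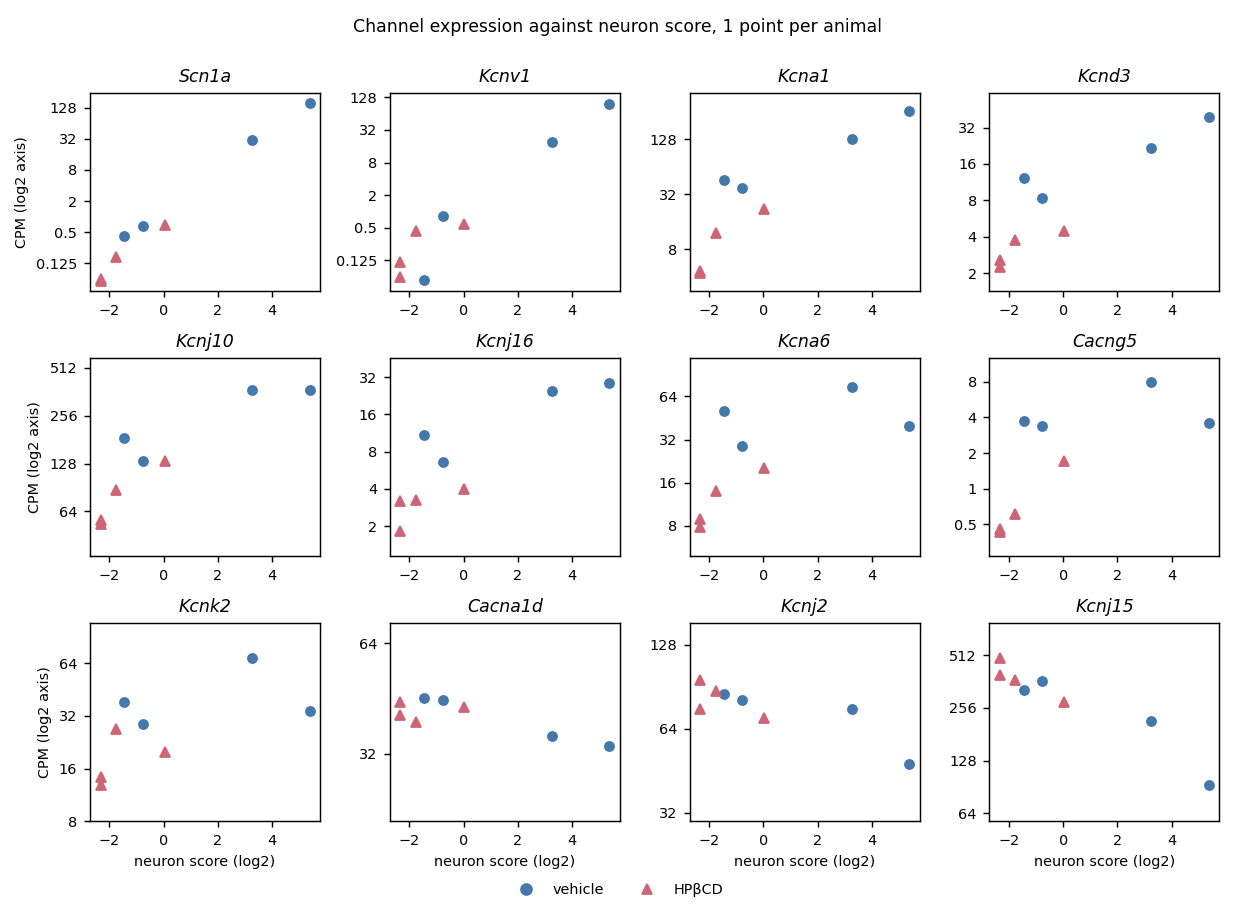
Expression (CPM, log2 axis) of 12 channel genes against the neuron score, with 1 point per animal, vehicle as circles and HPβCD as triangles. *Scn1a* climbs over the whole range of the score, and *Kcnv1* is high only in vehicle animals 1 and 3. *Cacna1d* is nearly level, *Kcnj2* is lowest in vehicle animal 3, and *Kcnj15* declines. For *Kcna1*, *Kcnd3*, *Kcnj10*, *Kcnj16*, *Kcna6*, *Cacng5* and *Kcnk2* all vehicle points lie above all HPβCD points.

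A list of channels known from cells outside neurons was followed in full, and it held 11 genes. Of the 10 that were tested, 2 followed the score, *Kcnj10* and *Kcnj16*, which together form a potassium channel of astrocytes. *Kcnj10* (ENSMUSG00000044708, chromosome 1, 172341210 to 172374085, plus strand) had 371, 133, 371 and 186 CPM in vehicle animals and 53.4, 56.6, 132 and 87.4 CPM in HPβCD animals, with a slope of 0.24 (0.12 to 0.36). *Kcnj16* (ENSMUSG00000051497, chromosome 11, 110968033 to 111027968, plus strand) had 24.9, 6.59, 28.7 and 10.9 CPM in vehicle animals and 1.83, 3.18, 4.02 and 3.27 CPM in HPβCD animals, with a slope of 0.27 (0.14 to 0.40). Both were highest in vehicle animals 1 and 3 and lay higher in every vehicle animal than in any HPβCD animal. When the astrocyte score took the place of the neuron score, *Kcnj10* had a slope of 0.96 (0.66 to 1.27, adjusted p = 0.048 by edgeR) and *Kcnk1* a slope of 1.97 (1.54 to 2.40, adjusted p = 0.0171 by edgeR), the only channels to pass. Over all 14736 genes, 26 had a called slope in either direction in this fit. *Kcnj16* had a slope of similar size to *Kcnj10* with a wider interval (0.98, 0.33 to 1.62, adjusted p = 0.338 by edgeR). The astrocyte score differed between the groups as well, and its summed markers ran from 2390 to 10054 CPM in the vehicle group and from 735 to 2764 CPM in HPβCD infarcts. This fit was added after the data had been seen.

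The remaining genes of that list had slopes with the neuron score near 0. *Kcnk13*, a channel of microglia, had 14.4, 13.7, 8.46 and 14.7 CPM in vehicle animals and 17.9, 15, 21.5 and 13 CPM in HPβCD animals (slope -0.05, -0.17 to 0.07). *Kcnn4*, which supports calcium entry in lymphocytes and macrophages, had means of 5.21 ± 1.6 and 4.74 ± 1.91 CPM (SD, n = 4 each) in vehicle and HPβCD infarcts and a slope of 0.11 (-0.06 to 0.28). *Kcna3*, the potassium channel of lymphocytes, had 1.86, 2.15, 2.78 and 1.66 CPM in vehicle animals and 0.860, 1.04, 0.750 and 0.942 CPM in HPβCD animals, without overlap, and a slope of 0.05 (-0.09 to 0.19). The B lymphocyte score, over 8 markers none of which was at 0 in any animal, was 1.28, 1.22, -0.12 and 0.80 in vehicle animals and -0.41, -1.6, -0.30 and -0.86 in HPβCD animals (summed markers 213 to 616 CPM and 144 to 262 CPM), and its part in *Kcna3* was not tested. The T lymphocyte score, also over 8 markers with none at 0, was 0.25, 0.05, -0.17 and -0.30 in vehicle animals and -0.05, -0.09, 0.85 and -0.53 in HPβCD animals (summed markers 114 to 172 CPM and 103 to 258 CPM), so the groups overlapped. *Kcnj13*, an inward rectifier of choroid plexus, had means of 3.41 ± 0.687 and 3.19 ± 1.03 CPM (SD, n = 4 each) for vehicle and HPβCD, but 49.1% of its exon bases lie opposite exons of another gene. *Kcna5* and *Kcnmb1*, channels of vascular smooth muscle, were scarce, with slopes of 0.04 (-0.29 to 0.36) and 0.02 (-0.19 to 0.24), and their means were under 1 CPM in both groups. *Kcne2*, a subunit of choroid plexus, was not tested: it had 1 count in each of HPβCD animals 1 and 4 and none elsewhere, at or below the limit of 3 counts per library in every animal.

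The second question was which channels differed between HPβCD and vehicle infarcts. Of the 88 tested channels, 4 were lower and none was higher in HPβCD infarcts at an adjusted p under 0.05 by edgeR's quasi-likelihood test, where 0.774% of all genes were called lower and 1.17% higher, 1.95% in all. The 4 were *Kcnd3*, *Kcnj16*, *Kcna6* and *Cacng5*. All 4 lay close to the threshold. *Kcnd3* (ENSMUSG00000040896, chromosome 3, 105452330 to 105674002, plus strand), which carries a transient current in interneurons and in heart, had 21.8, 8.39, 38.8 and 12.3 CPM in vehicle animals and 2.58, 2.26, 4.44 and 3.77 CPM in HPβCD animals. It fell by 2.63 on the log2 scale (SE 0.49, adjusted p = 0.0483 by edgeR). *Kcnj16* fell by 2.53 (SE 0.49, adjusted p = 0.0483 by edgeR), *Kcna6* by 1.92 (SE 0.38, adjusted p = 0.0483 by edgeR) and *Cacng5* by 2.52 (SE 0.52, adjusted p = 0.0499 by edgeR), all on the log2 scale. In each of the 4 every vehicle animal was above every HPβCD animal.

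Below the threshold the channels leaned to lower values. The fitted change was below 0 in 73 of the 88 and above 0 in 15, where 54.1% of all genes were below 0, and the median log2 fold change was -1.91 for channels and -0.05 for all genes. This lean rested largely on vehicle animals 1 and 3: without both, 53 of 89 tested channels were below 0 and 36 above, with a median of -0.13 (0.01 for all genes), and *Scn8a* and *Kcnv1* went from -4.82 and -6.55 to 0.13 and -0.62. With all 8 animals, an unadjusted p under 0.05 was reached by 51 lower and 2 higher channels (16.0% and 11.8% of all genes), and the groups did not overlap in 27 channels that were lower and 1 that was higher (8.01% and 8.77% of all genes). The 41 channels that followed the score with an interval reaching 0.5 were all lower by fitted value, with a median of -4.02 and a range from -7.51 to -0.47 on the log2 scale, and none of them was called by edgeR. An unadjusted p under 0.05 was reached by 32 of these 41, and DESeq2 called 31 of them lower. This class was picked in the same 8 animals by a rising slope on the neuron score. The mean of that score itself differed by -3.19 (HPβCD minus vehicle), and 39 of the 41 were highest in vehicle animals 1 and 3. Their lower fitted values were thus largely set by the choice of the class and are not a separate result. The 28 that were not called for a slope and had an interval below 0.5 were divided, 15 below 0 and 13 above, with a median of -0.11 and a range from -2.52 to 1.18. The 4 called genes were all outside the first of these classes: *Kcnd3* and *Kcnj16* followed the score with a slope interval below 0.5, and *Kcna6* and *Cacng5* did not follow it.

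Steep followers had large fitted differences with large errors. *Scn1a* had a log2 fold change of -7.51 (SE 2.17, adjusted p = 0.0874 by edgeR) and *Kcnv1* of -6.55 (SE 2.05, adjusted p = 0.0976 by edgeR). *Kcnj10* had a log2 fold change of -1.69 (SE 0.42, adjusted p = 0.0675 by edgeR). On the other side, *Kcnk5* had a log2 fold change of 0.91 (SE 0.23, adjusted p = 0.0687 by edgeR), and *Kcne3*, a small auxiliary subunit named after its values were seen, had the highest value of 1.18 (SE 0.40, adjusted p = 0.105 by edgeR). *Kcnj2* and *Cacna1d* had log2 fold changes of 0.18 (SE 0.20) and 0.07 (SE 0.14). DESeq2, the tool named in the submitters' processing notes, called 62 channels lower and 2 higher (*Kcnk5* and *Kcne3*) of the 105 for which it gave an adjusted p, against 11.4% and 6.09% of all genes, and its 62 included the 4 genes called by edgeR.

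The calls depended on single animals. Without vehicle animals 1, 4 or any of the 4 HPβCD animals no channel was called by edgeR. In most of these fits hardly any gene was called. Over all genes, the number called was 0 without vehicle animal 1 or 4 or HPβCD animal 2 or 3. It was 4 (0.0266%) without HPβCD animal 1 and 353 (2.35%) without HPβCD animal 4. Without vehicle animal 2 there were 13 of 94 tested channels (3.60% of all genes), and without vehicle animal 3 there were 4 of 89 (4.22% of all genes). Without both vehicle animals 1 and 3, the vehicle animals that remained had neuron scores within the HPβCD range, and 3 of 89 channels were called, where 1.34% of all genes were: *Kcnd3* and *Kcna2* were lower, by -1.64 and -1.42 on the log2 scale (adjusted p = 0.0425 and 0.0419 by edgeR), and *Cacna1c* was higher, by 0.86 (adjusted p = 0.0356 by edgeR). *Kcnj16*, *Kcna6* and *Cacng5* then had log2 fold changes of -1.48, -1.61 and -2.11.

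To ask which channels differed between groups beyond their relation to neuron content, the group difference was taken at equal neuron score, from the fit that holds both terms. No channel was called (edgeR; 2 of all 14736 genes were, 0.0136%). At an unadjusted p under 0.05 there were 22 lower and 3 higher channels, where 10.3% and 10.1% of all genes were lower and higher. The median difference of the channels was -0.16, against 0.01 for all genes. The smallest p-values belonged to *Cacna1e*, *Kcnd3*, *Kcna1*, *Kcnj16*, *Cacna1i* and *Kcna2*, all lower in HPβCD infarcts. At equal score *Cacna1e* differed by -1.40 (95% interval -1.77 to -1.02, adjusted p = 0.0526 by edgeR) and *Kcnd3* by -1.56 (-2.12 to -0.99, adjusted p = 0.0544 by edgeR). The differences of *Kcna1*, *Kcnj16*, *Cacna1i* and *Kcna2* were -1.80 (-2.60 to -1.0), -1.48 (-2.17 to -0.80), -1.93 (-2.86 to -0.99) and -1.27 (-1.89 to -0.65). In these 6 genes vehicle animals 2 and 4, whose neuron scores lay within the HPβCD range, were above all 4 HPβCD animals. The 6 were picked by the p-value of this same difference, so their values describe it and give no separate support.

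Among the 3 that leaned higher at equal score, *Cacna1c* had a difference of 0.85 (0.34 to 1.35, adjusted p = 0.115 by edgeR) and *Kcnk5* one of 0.56 (0.09 to 1.02, adjusted p = 0.191 by edgeR). The difference of *Scn8a* went from -4.82 without the score to 0.45 (-0.63 to 1.53) at equal score, and that of *Kcnv1* from -6.55 to -0.46 (-1.86 to 0.95). *Kcnj15* had 0.62 (SE 0.39) without the score and -0.08 (-0.57 to 0.42) at equal score. DESeq2 called 11 channels lower and 2 higher at equal score of 106 with an adjusted p, where 2.64% and 2.67% of all genes were called. With the astrocyte score held equal instead, *Cacna1e* differed by -1.11, *Kcnd3* by -1.0, *Kcna1* by -0.73, *Kcnj16* by -0.78, *Cacna1i* by -1.92 and *Kcna2* by -1.03. Their unadjusted p ran from 0.135 (*Kcnd3*) to 0.566 (*Kcna2*) by edgeR. Of all 14736 genes, 0 were called in this fit. The astrocyte score itself differed between the groups, so this fit cannot separate astrocyte content from group. The mean scores of HPβCD minus vehicle animals differed by -1.63 for astrocytes, -2.17 for oligodendrocytes and -1.49 for oligodendrocyte precursors. The part of these glial cells in the differences at equal neuron score was not tested beyond the astrocyte score.

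**Figure D4:**
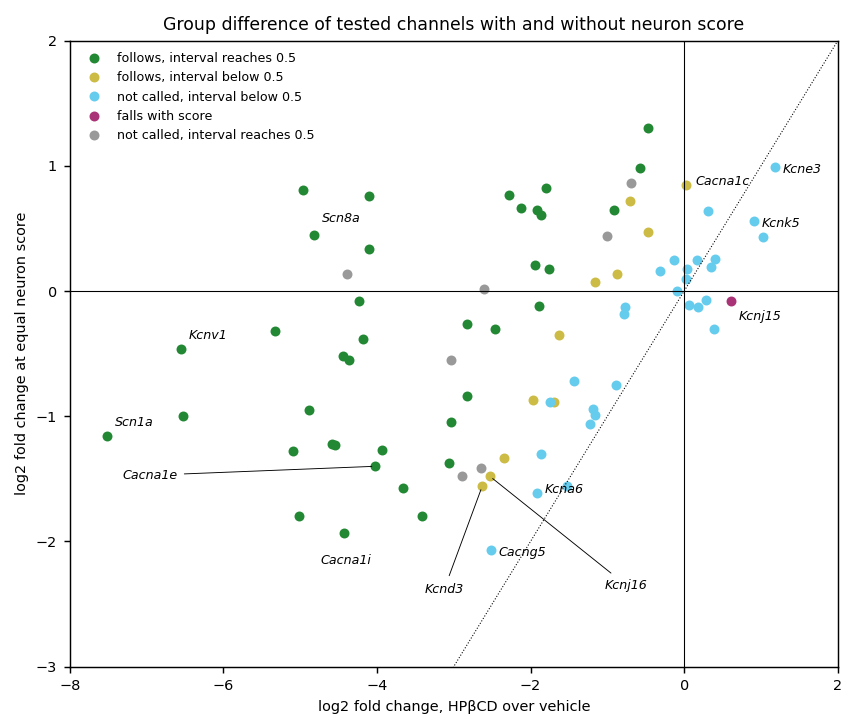
Log2 fold change of HPβCD over vehicle for 85 of the 88 tested channels (horizontal) against the same difference at equal neuron score (vertical), coloured by class, with the dotted line where both are equal. *Scn1a* and *Kcnv1* move from -7.51 and -6.55 to -1.16 and -0.46, whereas *Kcna6* and *Cacng5* stay near the line at -1.61 and -2.07.

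Channel partners, a list of 22 genes for anchoring proteins, pacemaker and leak channels and other companions of these channels, gave a comparison outside the members. Of its 18 tested genes, 13 followed the neuron score, and slopes ran from 0.06 to 1.12 with a median of 0.55. Between groups the median log2 fold change was -3.13, and adjusted p-values ran from 0.0599 (*Nfasc*) to 0.375 (*Fgf11*) by edgeR. *Ank2*, an anchor of membrane proteins found in many cell types, had a slope of 0.08 (SE 0.04, adjusted p = 0.192 by edgeR) at a mean of 298 CPM. *Cntn1*, an axonal adhesion protein, and *Ank3*, the anchor of sodium channels at the axon start, had slopes of 0.44 (SE 0.04) and 0.66 (SE 0.05).

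The 45 channels without a test did not reach the count minimum in enough animals. Of these, 3 had no count in any library (*Kcnk16*, *Kcnk18* and *Kcnv2*), and 21 others had fewer than 60 counts over all 8 libraries. In 22 of the 45 the highest values were those of vehicle animals 1 and 3, so the filter left out many genes that were detected mainly there. Among the untested channels were *Cacna1f* and *Cacna1s* of the calcium channel pores, *Cacng1*, *Cacng2*, *Cacng3*, *Cacng6* and *Cacng8* of the calcium channel auxiliary subunits, *Kcnu1* of the calcium- and sodium-activated channels, and *Scn9a*, *Scn10a* and *Scn11a* of the sodium channels. Calcium- and sodium-activated channels had 7 tested genes, of which 5 followed the score, with slopes from 0.03 to 0.45.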

How the data were processed

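Infarct RNA of 8 mice was sequenced by the authors, who prepared strand-specific libraries from polyadenylated RNA. Reads were trimmed with Trimmomatic (0.32), aligned to GRCm38 with STAR (2.5.2b) and counted per gene with HTSeq, per the submitters' processing notes and the study's methods. The HTSeq version, its strand option and the annotation release are not given in the sources used here. The authors deposited 1 table per animal of raw, unscaled counts for each gene. Lines for unassigned reads (26.6% to 36.6% of each table) were left out of totals and tests. Symbols matched 45143 of 46078 identifiers, and those unmatched held 0.0484% of the counts. Libraries held 16.6 M to 32.9 M gene counts, and a limit of 3 counts in a library (0.0911 to 0.181 CPM) covers counting error only.

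Counts were tested with edgeR 4.0.16 in R 4.3.3 (robust quasi-likelihood F test, TMM factors, filterByExpr by group, 14736 genes, Benjamini-Hochberg adjustment, threshold 0.05), for the group alone and for group plus neuron score. Standard errors came from the coefficient and its F statistic, and 95% intervals from the t quantile. CPM is scaled by TMM, log2 CPM used a prior count of 2, and TPM used union exon lengths of GENCODE M21, the source of the coordinates. DESeq2 1.42.0 and limma 3.58.1 served as alternatives. The fits were tested on simulated counts. Groups and animal numbers came from the labels, which name no batch, so no within-batch value could be given. No 2 libraries agreed within sampling noise. P-values measure the spread between animals.

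The members, marker lists, list of channels outside neurons and channel partners were chosen with earlier results of these data known. Named genes are the channels called in a test, up to the 10 with the smallest p in each, the 10 highest by TPM, the 12 highest by CPM with a slope interval below 0.5, the 6 highest and 6 lowest slopes among those with a mean of at least 1 CPM, the 6 smallest p-values at equal neuron score, and the list of channels outside neurons. Some members that these rules name or the counts include are not reported here by name and are left out of the plots.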

Additional observations from a re-analysis of the deposited data

Results flagged for a closer look

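In 86 groups of 4 animals (named channels in each treatment group), log2 CPM was searched for a single animal that stood apart from the other 3 by Dixon's criterion, which chance meets in about 1 of 20 groups, or 4.3 of 86. It was met in 2. *Cacng5*, a gamma subunit that accompanies glutamate receptors, was at 3.02 in vehicle animal 1 and between 1.81 and 1.93 in the other vehicle animals. *Kcnk13*, a channel of microglia, was at 3.10 in vehicle animal 3 and between 3.79 and 3.88 in the other vehicle animals. Vehicle animals 1 and 3 are those with the highest neuron scores. The cause of either value was not tested.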

How the results depend on the processing

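The number of channels called between groups (4) was 64 by DESeq2 (61.0% of the channels and 17.4% of all genes with an adjusted p) and 24 by limma-voom with quality weights (27.3% and 22.1%). It was 0 with library totals alone (0.0746% of all genes) and 0 with the count minimum in at least 2 libraries (0.0698%). With single animals left out it was between 0 and 13 (0.00% to 4.22% of all genes). With RLE scaling or no filter on low counts it stayed 4, and without vehicle animals 1 and 3 it was 3. The number following the neuron score (52) was between 31 and 59 when single animals were left out. It was 66 of 104 tested with the count minimum in at least 2 libraries. Without vehicle animals 1 and 3 it was 1, and with the astrocyte score in place of the neuron score it was 2. Called slopes over all genes, in either direction, were then 49 of 15066 and 26 of 14736. The number with a slope interval below 0.5 (40) was 61 with *Snap25* alone as score, 14 with the astrocyte score, and between 31 and 42 with single animals left out. The number called at equal neuron score (0) was 13 by DESeq2 (12.3% of the channels and 5.31% of all genes), 14 by limma-voom (15.9% and 9.62%), 4 with no filter (3.08% and 0.591%), 8 without vehicle animals 1 and 3 (8.99% and 2.52%), and between 0 and 5 with single animals left out. With the animal number as a replicate block the 4 counts were 0, 11, 26 and 0, but the numbers did not pair the animals: the correlations of same-numbered animals were -0.26, 0.24, 0.33 and 0.10, and vehicle animal 1 correlated best with HPβCD animal 3. Among the values followed for named genes, 7 were marked as turned in direction, under a rule narrower than a change of sign. Without vehicle animals 1 and 3 the slopes of *Cacna1c*, *Cacna2d1*, *Kcnab2* and *Scn2b* were -0.02, -0.01, -0.04 and -0.22, and the log2 fold changes of *Scn2b* and *Scn8a* were 0.66 and 0.13. With the astrocyte score the equal-score difference of *Scn1a* was 0.44. More fitted changes crossed 0 than these 7. Channels with a log2 fold change above 0 numbered 15 of 88 with all animals and 36 of 89 without vehicle animals 1 and 3. Those that crossed included *Kcnab2* (-1.92 to 0.38) and *Kcnc2* (-4.96 to 0.65). The omission of vehicle animals 1 and 3 and the astrocyte score were chosen after seeing the data. The median log2 fold change of all genes was -0.05, and -0.12 with library totals alone. The causes were not tested.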
